A study of Mus musculus with 9 samples.

Results

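The genes of LIF and gp130 to STAT3 signaling were read in the mouse uterus on gestation day (GD) 3.5, ahead of implantation. The members were chosen by name as *Lif*, *Lifr*, *Il6st*, *Stat3*, *Socs3*, *Il6*, *Il11*, *Il11ra1*, *Osmr* and *Cebpb*, and each was read at every probe set, a group of short probes for a transcript, that the platform annotation gives to that gene alone. Of these 10 genes, 9 had such a probe set, among 18193 genes in all, and they had 23 of the 45037 probe sets. *Il11ra1* is named only.

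Whole uteri of control mice, of *Mig-6* knockouts (single knockout) and of knockouts of both *Mig-6* and *Erbb2* (double knockout) were compared on 9 Affymetrix arrays, 3 per group. The comparison asks what loss of *Mig-6*, a brake on ERBB receptors, does to the uterus and what further loss of *Erbb2* changes. Every group carried floxed *Mig-6* (Mig-6 f/f). The methods give controls as Mig-6 f/f or as Mig-6 f/f Erbb2 f/f, with no Cre given for them. Which control array came from which genotype is not stated. The single knockout, labelled Mig-6 d/d, added Pgr cre/+ to Mig-6 f/f, and the double knockout, labelled Mig-6 d/d Erbb2 d/d, added both Pgr cre/+ and Erbb2 f/f. Cre came from the progesterone receptor gene, so deletion was limited to cells with a history of *Pgr* expression. The females were mated and of mixed C57BL/6 and 129P2/OlaHsd background. The labels give an age of 2 weeks, whereas the methods give adult mice. RNA was pooled within a genotype, and it is not stated whether the arrays of a group hold separate pools, so p-values may describe technical spread alone.

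In the mouse, LIF is made by the uterine glands after the nidatory rise of estrogen and acts on the luminal epithelium, where the receptor chain LIFR pairs with gp130, the product of *Il6st*. The pair activates JAK kinases, which phosphorylate STAT3, and STAT3 induces *Socs3*, an inhibitor of the same receptor. Embryos do not implant in mice that lack LIF, while IL-11 and C/EBPβ are needed for the stroma to decidualize.

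Sequence before the transcription start is shown for the ligand gene *Lif*, for the feedback gene *Socs3* and for *Icam1*. The last is a STAT3 target that passed the test between the knockouts, though not in every setting. Each stretch is the 250 bases before a RefSeq start in build GRCm38.p6, written 5′ to 3′ on the gene's own strand. The STAT motif TTCNNNGAA, which reads the same on both strands, is in capitals wherever it occurs. *Lif* is on the plus strand (chr11:4257318-4257567), *Socs3* on the minus strand (chr11:117969367-117969616) and *Icam1* on the plus strand (chr9:21015690-21015939).
Lif: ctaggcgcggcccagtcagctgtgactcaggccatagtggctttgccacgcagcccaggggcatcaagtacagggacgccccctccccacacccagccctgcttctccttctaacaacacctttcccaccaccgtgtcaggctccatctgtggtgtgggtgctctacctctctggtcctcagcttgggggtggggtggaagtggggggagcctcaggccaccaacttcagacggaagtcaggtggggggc
Socs3: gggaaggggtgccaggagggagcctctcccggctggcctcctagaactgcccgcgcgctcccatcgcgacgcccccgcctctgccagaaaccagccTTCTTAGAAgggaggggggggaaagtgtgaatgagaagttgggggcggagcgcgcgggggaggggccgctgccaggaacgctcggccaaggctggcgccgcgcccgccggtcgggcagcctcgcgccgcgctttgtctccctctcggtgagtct
Icam1: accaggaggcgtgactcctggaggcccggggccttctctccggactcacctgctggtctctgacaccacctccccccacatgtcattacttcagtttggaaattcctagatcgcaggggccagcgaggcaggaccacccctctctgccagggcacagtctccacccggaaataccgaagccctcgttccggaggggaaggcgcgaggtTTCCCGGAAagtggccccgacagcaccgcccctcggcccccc

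The motif was searched in windows from 250 bases before to 50 bases after each start. Of the 10 members, all with a window, only *Socs3* held it, as TTCTTAGAA starting 154 bases before the start. Of the 34 other pathway genes with a window, 4 held it (11.8%), namely *Gab1*, *Icam1*, *Cish* and *Bcl6*, and *Icam1*, chosen for printing after its level was seen, held it as TTCCCGGAA starting 42 bases before. A share of 9.55% of all 27025 genes with a window held the motif. A match is a string of letters and was not measured as a binding site here.

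Libraries were first set against their labels. *Errfi1*, the gene symbol of *Mig-6*, had an intensity of 286 to 564 in control, 29.8 to 76.0 in the double knockout, and 15.1, 16.0 and 255 in the libraries labelled as single-knockout replicates 1, 2 and 3, so that the library labelled as single-knockout replicate 3 had a control-like *Errfi1* level. *Erbb2* had an intensity of 9.88 to 18.4 in the double knockout and 29.4 to 46.5 in the other 6 arrays. Control replicate 3 had 38 probe sets more than 2-fold below the lowest of the other 8 arrays, where each other array had 0 to 13 of this kind. More than 2-fold above the highest of the other 8 arrays, it had 22 probe sets, single-knockout replicate 3 had 48, single-knockout replicate 2 and double-knockout replicate 3 had 27 each, and the other arrays had 1 to 18. Where a call was lost without control replicate 3 or single-knockout replicate 3, the value without that array is given. The uterine genes *Pgr*, *Esr1*, *Hoxa10* and *Hoxa11* were read in all arrays, with a summed intensity of 2880 to 4337.

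Cell type markers differed between the groups. The 8 epithelial markers had a summed intensity of 2190 to 4786 in control, 6436 to 10781 in the single knockout and 1865 to 3059 in the double knockout. The summed intensity of the 7 stromal markers was 15052 to 17990, 13169 to 14411 and 16703 to 17256 in the same order, that of the 5 smooth muscle markers 9794 to 12712, 6664 to 9084 and 11925 to 14076, and that of the 5 endothelial markers 595 to 694, 336 to 417 and 511 to 677. In the single knockout, the summed epithelial markers thus lay above, and the summed stromal, muscle and endothelial markers below, every array of both other groups. Read singly at the brightest probe set, 7 of 8 epithelial markers lay above every control array in the single knockout. Below every control array lay 3 of 7 stromal, 4 of 5 muscle and 5 of 5 endothelial markers. Of all probe sets, 21.0% did not overlap in this comparison. The sums of gland markers (6 genes, 348 to 863, 280 to 656 and 288 to 497), leukocyte markers (5 genes, 459 to 565, 412 to 488 and 479 to 607) and neutrophil markers (3 genes, 13.4 to 20.5, 18.3 to 19.6 and 15.1 to 18.5) overlapped between groups. Of the 5 leukocyte genes, 3 were higher and 2 lower on average in the single knockout than in control. *Csf1r* was 184 to 232 in the single knockout and 249 to 366 in the other arrays. *Cd68* was 45.7 to 75.6 in the single knockout, 21.9 to 32.7 in control and 17.1 to 52.9 in the double knockout. *Adgre1* was 66.3 to 79.8 in the double knockout and 34.3 to 60.7 in the other arrays. No marker was listed at 0. In whole tissue, fewer cells of a type and less RNA per cell cannot be told apart, and the part of these shifts in the values below was not tested.

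No member probe set was called in any comparison, which does not show that levels were the same. A probe set was called when its Benjamini-Hochberg adjusted p over all probe sets was under 0.05 in limma and its change exceeded 1.5-fold. Log2 fold changes are differences between group means of log2 intensity, and intensities are on the deposited linear scale. In the single knockout against control, 0 of 23 member probe sets were called, where 2.81% of all probe sets were. In the double knockout against control the count was 0 of 23 (0.357% of all), and in the double knockout against the single knockout it was 0 of 23 (5.13% of all). At an unadjusted p under 0.05 in limma, 2, 2 and 5 member probe sets passed in the 3 comparisons (18.1%, 7.63% and 20.2% of all probe sets), the 5 being of *Lifr*, *Il6st* and *Socs3*, and by the methods' t-test 4, 1 and 3 passed unadjusted (12.4%, 5.97% and 18.0% of all). After adjustment, with the fold limit, that test called 0 member probe sets in each (0.00%, 0.00% and 0.0777% of all). The comparisons share arrays, so their values are given side by side.

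**Figure D1:**
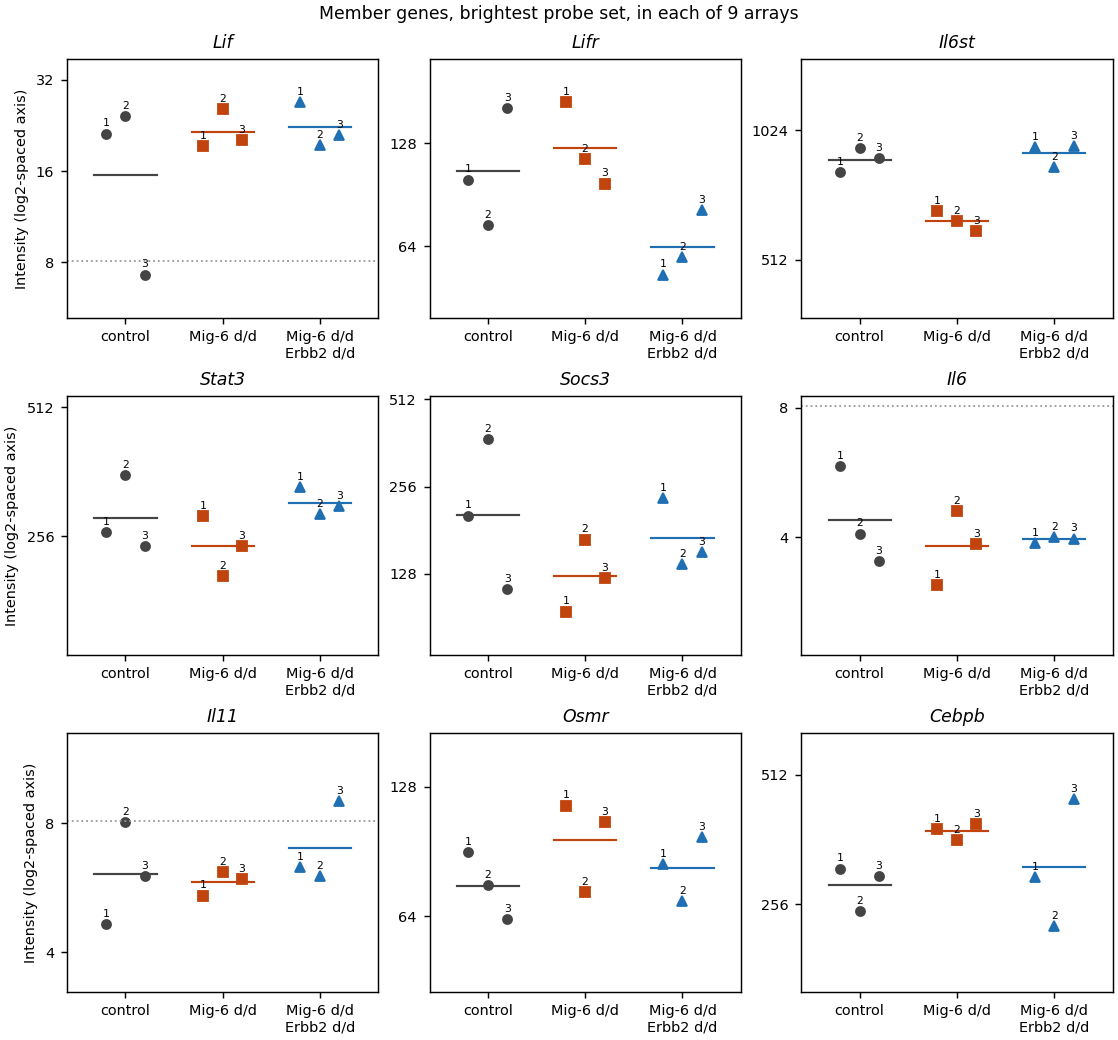
Intensity (log axis, deposited linear scale) of the 9 members at their brightest probe set in each of the 9 arrays, by group, as control, single knockout and double knockout. Points are arrays labelled with their replicate number, bars are geometric means of a group and the dotted line is the median of the table, 8.07. *Lif* in control replicate 3 (7.29) lies below its other 8 arrays, and *Il6st* lies lower in all single-knockout arrays than in any other array.

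The plot of intensities by array shows most members overlapping between the groups. The median log2 fold change of the 23 member probe sets was -0.03 in the single knockout against control, 0.05 in the double knockout against control and 0.06 in the double knockout against the single knockout, beside -0.02, 0.00 and 0.02 over all probe sets. The arrays of both groups did not overlap at 4 member probe sets in the first comparison, 1 in the second and 4 in the third, where 21.0%, 11.7% and 26.9% of all probe sets did not. The 95% confidence interval lay within a 1.5-fold change for 11, 13 and 9 of the 23 (47.8%, 56.5% and 39.1%), beside 73.8%, 82.2% and 72.7% of all probe sets. For the rest the interval reached beyond it. Of the 23 probe sets, 8 had a mean below the table's median intensity of 8.07, and their fold changes are not exact.

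*Lif*, which encodes the cytokine that readies the epithelium for attachment, had an intensity at its brighter probe set (1421207_at) of 21.2, 24.2 and 7.29 in control, 19.3, 25.6 and 20.2 in the single knockout and 27.0, 19.4 and 21.1 in the double knockout. All arrays but control replicate 3 lay in 1 band from 19.3 to 27.0, so the groups overlapped. The group means were 17.6 ± 9.04 in control, 21.7 ± 3.37 in the single knockout and 22.5 ± 3.98 in the double knockout (SD, n = 3), and no neighbours in this order differed beyond their spread. Against control, the log2 fold change of *Lif* was 0.47 in the single knockout (95% CI -0.36 to 1.30, adjusted p = 0.581, limma) and 0.52 in the double knockout (95% CI -0.31 to 1.35, adjusted p = 0.837, limma). Without control replicate 3 these values were -0.08 and -0.03 (adjusted p = 0.888 and 0.993, limma), so the difference rested on that array. Between the knockouts it was 0.05 (95% CI -0.78 to 0.88, adjusted p = 0.968, limma).

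Control replicate 3 was low in *Lif* and in some, not all, gland genes, and it differed from the other controls in markers of other cell types too. *Spink1*, which encodes a secreted protease inhibitor, had an intensity of 14.1 there and 75.0 to 654 in the other 8 arrays. *Ttr* was also lowest there at its brightest probe set (13.3), close to single-knockout replicate 1 (13.8). At the other *Ttr* probe sets single-knockout replicate 1 was lowest (3.02, 2.66 and 4.93, beside 4.70, 2.95 and 5.22 in control replicate 3). In control replicate 3 *Foxa2*, which encodes the transcription factor of uterine glands, was highest of all arrays (64.1), as was the gland gene *Cxcl15* (228). Its summed epithelial markers were 4786, beside 2525 and 2190 in the other controls, with the epithelial keratin gene *Krt19* at 749 (234 and 252) and the epithelial adhesion gene *Epcam* at 915 (291 and 458). Of all arrays it was highest in *Pgr* (1613) and in the stromal marker *Thy1* (550) and lowest in the leukocyte markers *Ptprc* (81.6) and *Adgre1* (34.3), while the stromal marker *Pdgfra* was 503, beside 1056 and 1092 in the other controls. The part of these markers in its *Lif* level was not tested. The second *Lif* probe set (1450160_at) stayed between 3.94 and 4.99 in all 9 arrays, below the table's median, although both carry the same accession.

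The genes most like *Lif* over the 9 arrays shared this low array. By the root-mean-square difference between log2 values centred on each gene's own mean, they were *Timp1* (0.201), *Mthfd2* (0.218) and *Sorl1* (0.228), where the same measure of *Lif* against a flat line was 0.529. In control replicate 3 the intensity of *Timp1*, which encodes a metalloproteinase inhibitor and is a STAT3 target, was 46.1, beside 87.9 to 152 in the others. *Mthfd2*, which encodes a mitochondrial folate enzyme, was lowest there too (42.5), as was *Sorl1*, which encodes a sorting receptor (79.8). All 9 arrays entered this measure, and it is a description of these arrays.

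*Il6* and *Il11*, which encode the other member cytokines, were dim. *Il6* (1450297_at) lay between an intensity of 3.10 and 5.86 in the 9 arrays, all below the table's median. *Il11* (1449982_at) lay between 4.66 and 9.0. Their log2 fold changes ran from -0.20 to 0.27 over the 3 comparisons and none passed the test (adjusted p of 0.543 to 0.925, limma).

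Receptors held the member probe sets with the smallest p. *Il6st* encodes gp130, the signaling chain that all cytokines of the family share. At its brightest probe set (1452843_at) the intensity was 817, 930 and 882 in control, 665, 630 and 597 in the single knockout and 934, 842 and 942 in the double knockout. All single-knockout arrays, the one with a control-like *Errfi1* level included, lay below all 6 others. The means were 876 ± 56.5, 631 ± 33.7 and 906 ± 55.3 (SD, n = 3).

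The *Il6st* difference passed the adjusted p but not the fold limit. Its log2 fold change was -0.47 in the single knockout against control (SE 0.10, adjusted p = 0.0313, limma), a ratio of 0.720. In the double knockout against the single knockout it was 0.52 (SE 0.10, adjusted p = 0.0129, limma), a ratio of 1.44, and in the double knockout against control it was 0.05 (95% CI -0.17 to 0.26, adjusted p = 0.956, limma). At an adjusted p under 0.05 with no fold limit, 1 of 23 member probe sets passed in each of the comparisons with the single knockout, where 3.55% and 6.68% of all probe sets did, and 0 of 23 in the double knockout against control (0.366% of all). Without the library labelled as single-knockout replicate 3 the log2 fold changes were -0.44 and 0.48 (adjusted p = 0.105 and 0.0517, limma). Without control replicate 3 they were -0.47 and 0.52 (adjusted p = 0.0619 and 0.0167, limma). Over 18 settings the adjusted p ran from 0.0230 to 0.269 and from 0.00689 to 0.10, and was under 0.05 in 10 and 15 of the 18. The summed stromal, muscle and endothelial markers were lowest in the same 3 arrays, and their part in this difference was not tested.

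**Figure D2:**
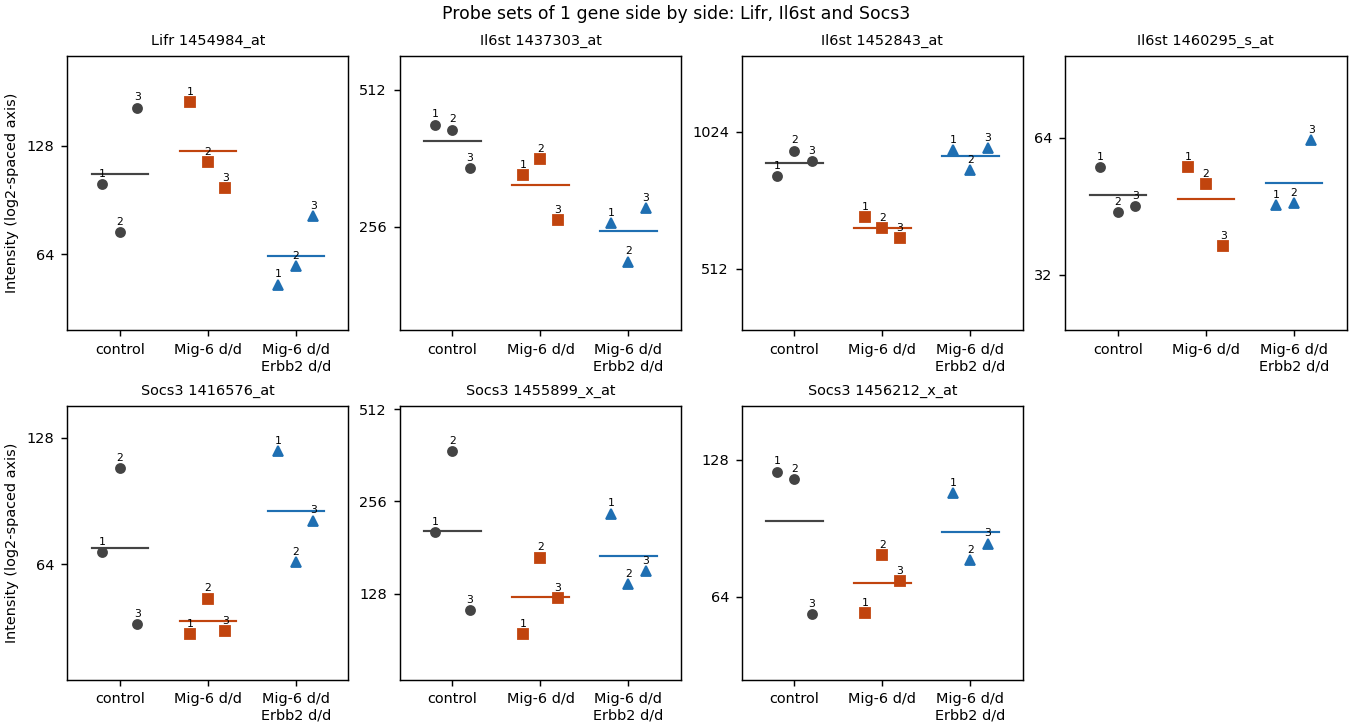
Intensity (log axis) in each array at probe sets of the same gene whose means lie above the table's median, by group. The *Il6st* probe set 1452843_at is lowest in the single knockout, whereas 1437303_at is lowest in the double knockout.

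The *Il6st* probe sets did not show the same order of groups. At 1437303_at the intensity was 430, 419 and 345 in control, 333, 361 and 265 in the single knockout and 261, 215 and 281 in the double knockout. Here the double knockout lay below control in every array, with a log2 fold change of -0.66 (95% CI -0.99 to -0.33, adjusted p = 0.154, limma), while the single knockout overlapped both. The double knockout against the single knockout was -0.34 at this probe set and 0.52 at 1452843_at, as the plot of probe sets of the same gene shows. The remaining *Il6st* probe sets, 1460295_s_at (37.0 to 63.2) and 1421239_at (5.72 to 8.28), had log2 fold changes between -0.11 and 0.16. Which transcripts each reads is not stated, so no direction is given for *Il6st* as a gene.

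*Lifr* encodes the chain that binds LIF. At its brightest probe set (1454984_at) the intensity was 100, 73.8 and 163 in control, 169, 115 and 97.7 in the single knockout and 52.9, 59.4 and 81.8 in the double knockout. Every double-knockout array lay below every single-knockout array, and 1 of them overlapped control. The log2 fold change was -0.96 in the double knockout against the single knockout (SE 0.29, 95% CI -1.62 to -0.31, adjusted p = 0.0819, limma), 0.22 in the single knockout against control (95% CI -0.43 to 0.87, adjusted p = 0.775, limma) and -0.74 for double knockout against control (95% CI -1.40 to -0.09, adjusted p = 0.560, limma). Without control replicate 3 the last of these was -0.44 (adjusted p = 0.844, limma), and the comparison of both knockouts passed (adjusted p = 0.0353, limma, same log2 fold change). Without the library labelled as single-knockout replicate 3 it was -1.14 (adjusted p = 0.0927, limma).

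A dim *Lifr* probe set showed the single knockout as the highest group. At 1425107_a_at the intensity was 4.68, 5.40 and 6.66 in control, 9.94, 10.8 and 7.19 in the single knockout and 4.94, 4.27 and 7.63 in the double knockout. The single-knockout arrays lay above all control arrays, and the log2 fold change there was 0.73 (adjusted p = 0.115, limma). The double knockout against the single knockout was -0.75 (adjusted p = 0.0825, limma). That comparison passed without double-knockout replicate 3 (-0.996, adjusted p = 0.0291, limma). The third *Lifr* probe set (1450207_at) stayed between 3.73 and 5.40.

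*Osmr*, which encodes the chain that pairs with gp130 for oncostatin M, overlapped in all groups. Its intensity (1418674_at) was 90.1, 75.6 and 63.0 in control, 116, 72.8 and 106 in the single knockout and 84.5, 69.3 and 97.8 in the double knockout. The log2 fold changes were 0.35, 0.14 and -0.21 in the 3 comparisons (adjusted p = 0.407, 0.936 and 0.641, limma). Its other probe sets lay between 3.51 and 4.79.

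*Stat3*, which encodes the transcription factor of the pathway, had no call at any of its 4 probe sets. At 1460700_at the intensity was 262, 356 and 243 in control, 286, 207 and 243 in the single knockout and 333, 288 and 301 in the double knockout. The double knockout lay above the single knockout in every array (log2 fold change 0.34, 95% CI -0.02 to 0.70, adjusted p = 0.283, limma), and control overlapped both. At 1426587_a_at, with intensities of 208 to 310, the same log2 fold change was 0.12. Over the 4 *Stat3* probe sets the log2 fold changes ran from -0.22 to 0.34 in all comparisons, and none passed. RNA levels do not report STAT3 phosphorylation, which was not measured on these arrays.

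**Figure D3:**
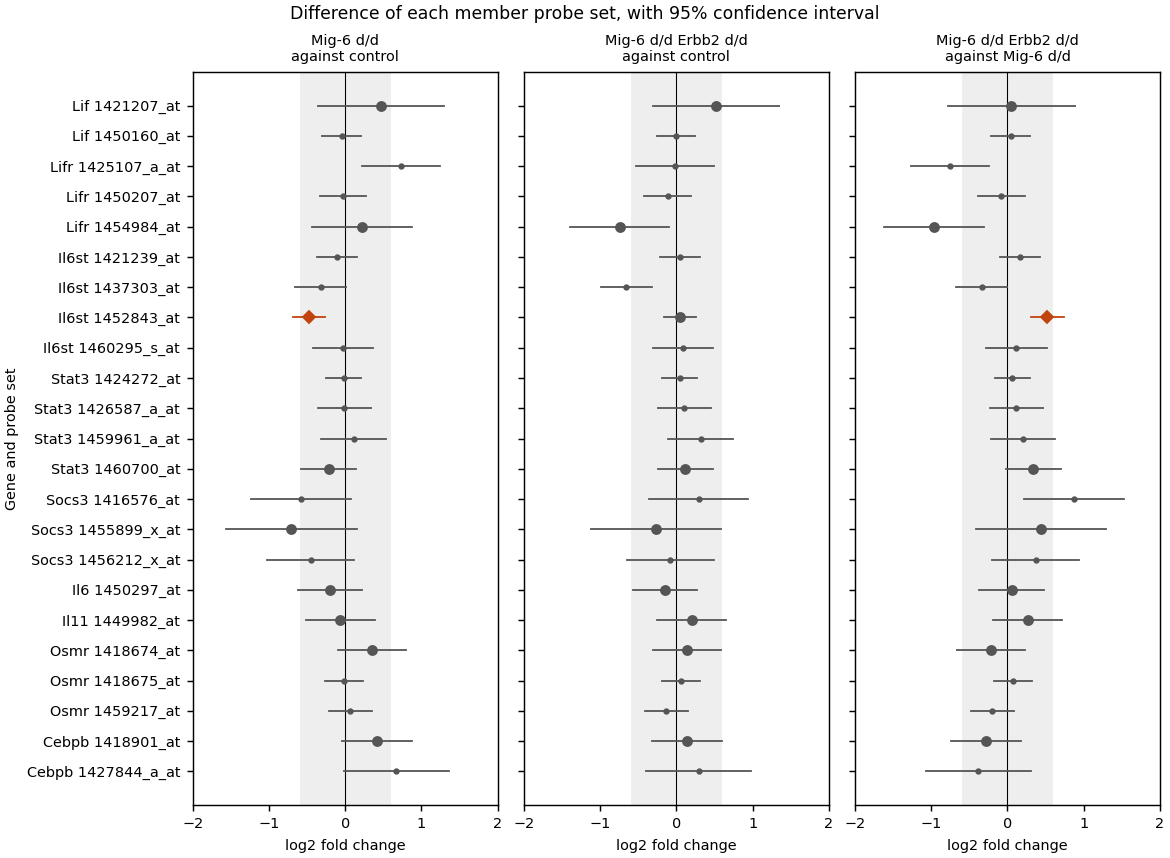
Log2 fold change of the 23 member probe sets in the 3 comparisons, with 95% confidence intervals. Large dots are the brightest probe set of a gene, small dots the others, the grey band is a change within 1.5-fold, and diamonds mark an adjusted p under 0.05 in limma, reached only by *Il6st* at 1452843_at (-0.47 and 0.52).

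*Socs3*, the feedback inhibitor, had the same signs at its 3 probe sets in the comparisons with the single knockout, none of them called. At the brightest (1455899_x_at) the intensity was 203, 373 and 113 in control, 94.7, 168 and 124 in the single knockout and 234, 138 and 152 in the double knockout. At 1416576_at it was 68.3, 109 and 46.1 in control, 43.6, 53.0 and 44.3 in the single knockout and 119, 64.9 and 81.3 in the double knockout. Control spread over both knockouts at both probe sets, and at 1416576_at alone the double knockout lay above the single knockout in every array.

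The log2 fold changes of *Socs3* in the single knockout against control were -0.71, -0.58 and -0.45 at 1455899_x_at, 1416576_at and 1456212_x_at (adjusted p = 0.384, 0.344 and 0.411, limma). Between the knockouts, double against single, they were 0.44, 0.87 and 0.37 (adjusted p = 0.612, 0.114 and 0.495, limma). Probe sets of 1 gene share their RNA and are not replicates. The values rested on single control arrays. Without control replicate 2 the differences of the single knockout from control were -0.27, -0.26 and -0.29 at the same probe sets (adjusted p = 0.787, 0.725 and 0.720, limma). Without control replicate 3 they were -1.13, -0.88 and -0.79 (adjusted p = 0.10, 0.115 and 0.0416, limma), so that 1456212_x_at was called. Without control replicate 2, 1416576_at was called between the knockouts (0.87, adjusted p = 0.0485, limma).

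*Cebpb* encodes C/EBPβ, a STAT3-induced transcription factor of decidualizing stroma. At 1418901_at the intensity was 310, 246 and 298 in control, 383, 361 and 393 in the single knockout and 296, 228 and 450 in the double knockout. All single-knockout arrays lay above all control arrays, and the double knockout spread over both. The log2 fold change in the single knockout against control was 0.42 (95% CI -0.04 to 0.88, adjusted p = 0.335, limma). It was 0.67 at 1427844_a_at (95% CI -0.01 to 1.36, adjusted p = 0.288, limma), where these 2 groups did not overlap either and the double knockout again spread over both. The *Cebpb* differences between the knockouts, -0.28 and -0.38, did not pass (adjusted p = 0.533 and 0.575, limma).

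Other genes of the pathway were read from 5 lists, with 41 of 46 genes and 84 probe sets measured. In the single knockout against control 0 of the 84 were called in limma (2.81% of all probe sets), with 19 at an unadjusted p under 0.05 (18.1% of all) and, by the methods' t-test, 8 unadjusted (12.4% of all) and 0 adjusted with the fold limit. In the double knockout against control 1 fell and 0 rose, beside 0.160% of all probe sets that fell. In the double knockout against the single knockout 4 rose and 2 fell, beside 2.38% and 2.75% of all probe sets. The median log2 fold changes of the 84 were -0.03, 0.03 and 0.01, beside -0.02, 0.00 and 0.02 over all probe sets.

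**Figure D4:**
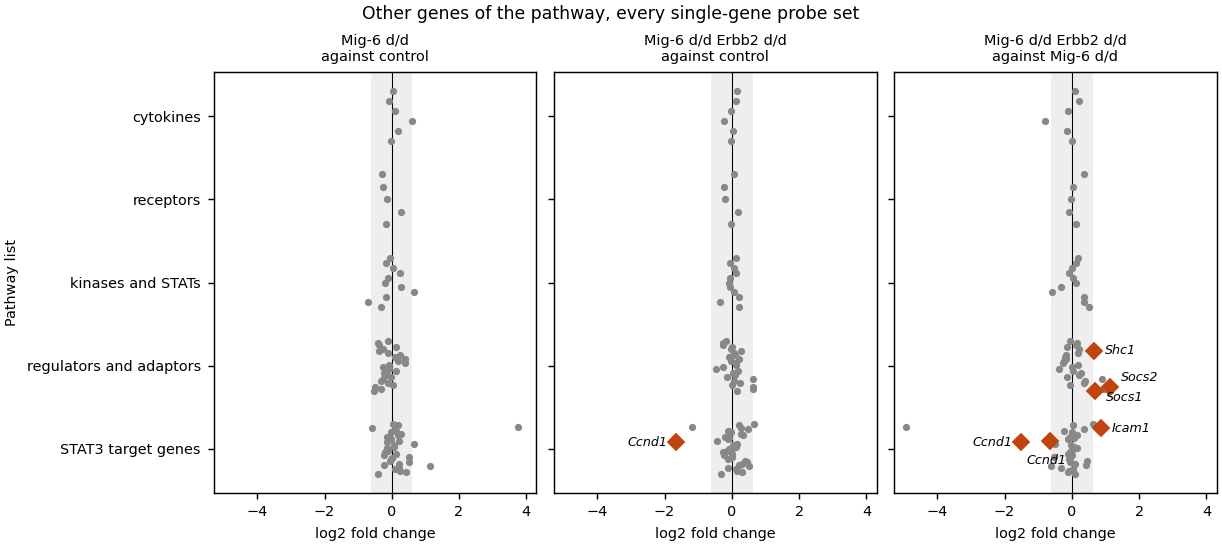
Log2 fold change of each of the 84 probe sets in the 5 pathway lists, in the 3 comparisons. Grey dots were not called, the grey band is a change within 1.5-fold, and diamonds are called probe sets, of which 1 lies in the middle panel and 6 in the right panel.

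Feedback inhibitors and adaptors held 3 of the probe sets that rose between the knockouts, of 26 in their list, where 2.38% of all probe sets rose. *Socs2*, which encodes an inhibitor of cytokine and growth hormone receptors, had an intensity at 1438470_at of 10.6, 12.1 and 8.03 in control, 6.49, 7.07 and 8.09 in the single knockout and 18.4, 15.02 and 13.8 in the double knockout. The double knockout lay above all 6 other arrays. The log2 fold change of *Socs2* against the single knockout was 1.12 (SE 0.17, adjusted p = 0.00556, limma), a call kept in 16 of 17 alternatives. Single-knockout intensities at this probe set lay near or below the table's median of 8.07, so the fold change is not exact. Against control the log2 fold change was 0.63 (adjusted p = 0.258, limma). Of its other 5 probe sets, 4 had the same sign between the knockouts and none was called, with the brightest (1449109_at) at 0.88 (adjusted p = 0.0845, limma).

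*Socs1*, which encodes a JAK inhibitor, and *Shc1*, which encodes an adaptor of gp130 and of ERBB receptors, rose too, with calls kept in fewer alternatives. *Socs1* (1450446_a_at) had an intensity of 8.71, 9.76 and 8.30 in control, 7.44, 6.13 and 5.29 in the single knockout and 11.8, 7.63 and 11.1 in the double knockout. *Shc1* (1422854_at) had 67.9, 83.5 and 71.2, then 74.0, 47.6 and 53.0, then 90.6, 79.8 and 99.3. In both genes the double knockout lay above the single knockout in every array and overlapped control. The log2 fold changes between the knockouts were 0.68 and 0.65 (adjusted p = 0.0479 and 0.0446, limma), and the calls were kept in 4 and 6 of 17 alternatives, where the adjusted p reached 0.273 and 0.247. Without single-knockout replicate 3 both calls were lost, at 0.57 and 0.59 (adjusted p = 0.155 and 0.137, limma), as they were without control replicate 3 (adjusted p = 0.0544 and 0.0533, limma, same log2 fold changes). Leaving out most other arrays lost them too. The *Socs1* call stayed only without double-knockout replicate 2, and the *Shc1* call only without control replicate 2 or single-knockout replicate 1. All single-knockout intensities of *Socs1* lay below the table's median of 8.07, so its fold change is not exact. No probe set of the 26 was called in either comparison with control (2.81% and 0.357% of all probe sets).

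The 36 probe sets of STAT3 target genes included 1 that rose and 2 that fell between the knockouts, beside 2.38% and 2.75% of all probe sets. *Icam1*, which encodes an adhesion molecule and whose promoter is printed above, had an intensity (1424067_at) of 43.4, 69.7 and 36.2 in control, 31.8, 31.6 and 31.5 in the single knockout and 67.3, 55.2 and 51.7 in the double knockout. The single-knockout arrays lay below all others. The log2 fold change of *Icam1* between the knockouts was 0.87 (SE 0.21, adjusted p = 0.0347, limma), a call kept in 10 of 17 alternatives. It was lost without any 1 array of either knockout, single-knockout replicate 3 among them (0.86, adjusted p = 0.0934, limma). In the single knockout against control the log2 fold change of *Icam1* was -0.60 (adjusted p = 0.152, limma).

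*Ccnd1* encodes cyclin D1 of the cell cycle and responds to many growth signals besides STAT3. It was called lower in the double knockout at some of its probe sets. At 1417419_at the intensity was 171, 181 and 170 in control, 188, 138 and 154 in the single knockout and 75.7, 46.8 and 48.2 in the double knockout. The double knockout lay below all other arrays. Its log2 fold change at this probe set was -1.65 against control (SE 0.18, adjusted p = 0.0044, limma). Against the single knockout it was -1.52 (adjusted p = 0.00255, limma). These calls were kept in 16 of 17 alternatives each. At 1417420_at, the brightest, the log2 fold change against the single knockout was -0.64 (adjusted p = 0.0306, limma), a call kept in 12 of 17 alternatives. That call was lost without single-knockout replicate 3 (-0.58, adjusted p = 0.106, limma), single-knockout replicate 1, or double-knockout replicate 2 or 3. Against control the double knockout was not called at this probe set (log2 fold change -0.44, adjusted p = 0.442, limma). At the third probe set (1448698_at) the log2 fold change was -0.10 (adjusted p = 0.821, limma), so the probe sets of *Ccnd1* differed in size and in which comparisons were called.

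Ligands, receptors and kinases of the lists had no call in any comparison, in 6, 5 and 11 probe sets. Of all probe sets, 2.81%, 0.357% and 5.13% were called in the 3 comparisons. *Clcf1*, a gp130 cytokine gene, had an intensity at its probe set 1437270_a_at of 15.3, 11.2 and 25.4 in control, 21.6, 28.6 and 24.1 in the single knockout and 13.4, 14.1 and 14.5 in the double knockout, which lay below every single-knockout array (log2 fold change -0.81, adjusted p = 0.0778, limma). *Jak2*, which encodes a receptor-bound kinase, was higher in every single-knockout array than in control at its dimmer probe set (1421065_at, log2 fold change 0.66, adjusted p = 0.0642, limma) and had 0.28 at the brighter (adjusted p = 0.379, limma). *Jak1*, the main kinase of gp130, had log2 fold changes in the same comparison of -0.70, -0.31 and -0.16 at its 3 probe sets (adjusted p = 0.138, 0.566 and 0.822, limma). The log2 fold changes of *Tyk2* (kinase) and *Il6ra* (receptor of IL-6) lay between -0.20 and 0.28 in all comparisons, and those of *Osm* (oncostatin M) between -0.04 and 0.00. None of these passed the test.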

How the data were processed

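RNA of whole uteri was measured on 9 Affymetrix mouse arrays. The authors summarised each probe set by robust multi-array averaging (RMA, per the labels) with quantile normalization in Bioconductor, version not stated, and deposited 1 intensity per probe set and array on a linear scale (median 8.07, array medians 7.87 to 8.24). RMA gives no detection call. Differences of dim probe sets may be flattened, which was not tested. Log2 values were computed here from the deposited intensities.

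Probe sets were named from the platform annotation, where 34945 had 1 symbol, 932 several and 9160 none named here. RefSeq (GRCm38.p6) held the gene of 34741 of the probe sets with 1 symbol, and 0 symbols changed. The members and lists were chosen with earlier results of these data known. Named were the members, each listed gene with a call, *Il6ra*, *Jak1*, *Jak2*, *Tyk2*, *Osm* and *Clcf1*, the 3 genes most like *Lif*, and *Errfi1* and *Erbb2*. *Lcn2*, *Fos*, *Mcl1* and *Birc5*, and *Gab1*, *Cish* and *Bcl6* for their motif, were added after their values were seen, as were the leukocyte marker genes given singly and the marker genes given for control replicate 3. A gene's main reading was its probe set with the highest mean.

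All groups entered 1 linear model (R 4.3.3, limma 3.58.1, lmFit and eBayes), with p adjusted by Benjamini-Hochberg over 45037 probe sets. It was tested on simulated data first. The methods name a 2-sample comparison with a limit of 1.5-fold and, elsewhere, an unpaired t-test, which was run on the log2 values as an alternative (the methods' t-test). Further settings were dropping dim probe sets, a repeat of quantile normalization, centring on array medians, a trended and robust variance (statmod 1.5.0), fitting only the 6 arrays compared, weighting arrays, a block for the replicate number, no fold limit, averaging the probe sets of a gene, and leaving out each array. The number of arrays limits the precision. Plots were made in Python 3.11.15 with matplotlib 3.10.9. Scanner files were not used here.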

Additional observations from a re-analysis of the deposited data

How the results depend on the processing

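Of 507 values of the 9 members (27 log2 fold changes under up to 19 settings, since the filter on dim probe sets removed *Il6* and *Il11*), 488 kept their direction and their side of the threshold, 14 turned sign and 5 passed where the main value did not; the sign changes were of log2 fold changes that had not passed the test. Called member probe sets in the single knockout against control numbered 0, and 1 with no fold limit (*Il6st*) and 0 to 1 with 1 array left out (1 without control replicate 3). Between the knockouts they numbered 0, and 1 with no fold limit, 2 with only the 6 arrays compared (*Lifr* and *Socs3*), and 0 to 1 with 1 array left out (1 each without control replicate 2, control replicate 3 or double-knockout replicate 3). No setting called a member probe set in the double knockout against control. Of the pathway lists, 0 probe sets were called in the single knockout against control, and 1 with the filter on dim probe sets (*Jak2*), 1 with only the 6 arrays compared (*Lcn2*), 1 with no fold limit (*Mcl1*) and 0 to 2 with 1 array left out (2 without control replicate 1, *Mcl1* and *Birc5*; 1 without control replicate 3, *Clcf1*; 1 without single-knockout replicate 2, *Fos*; 1 without single-knockout replicate 3, *Jak2*; 1 without double-knockout replicate 3, *Lcn2*). By the methods' t-test the 1 call in the double knockout against control became 0 and the 6 between the knockouts became 0, and with 1 array left out the 6 ran from 3 to 7, with 3 without any one single-knockout array or without double-knockout replicate 2 or 3. With 1 array left out, log2 fold changes in the single knockout against control ran from -0.076 to 0.79 for *Lif*, -0.044 to 0.53 for *Lifr*, -0.36 to 0.0065 for *Il6* and -0.26 to 0.13 for *Il11*. In the double knockout against control they ran from -0.027 to 0.84 for *Lif*, -0.0013 to 0.0998 for *Il6st*, -0.70 to 0.16 for *Socs3*, -0.31 to 0.061 for *Il6* and -0.12 to 0.37 for *Cebpb*, and between the knockouts from -0.090 to 0.17 for *Lif* and -0.094 to 0.19 for *Il6*. The mean over probe sets gave -0.12 for *Il6st* in the double knockout against control. Between the knockouts that setting called *Lifr* (-0.60, adjusted p = 0.0495, limma). Correlations of same-numbered arrays' deviations ran from -0.133 to 0.203. Differently numbered arrays were not correlated for reference, so whether the replicate numbers pair the arrays cannot be told. With the replicate block, 0 member probe sets were called in each comparison and 1 pathway probe set in the single knockout against control (*Jak1*). The causes of these differences were not tested.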

Other observations

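*Lcn2*, a STAT3 target gene that encodes the secreted iron carrier lipocalin 2 of stimulated epithelium, had an intensity of 181, 98.8 and 212 in control, 3214, 816 and 3539 in the single knockout and 24.1, 11.4 and 1209 in the double knockout. The single-knockout arrays lay above all control arrays, and double-knockout replicate 3 lay apart from the other double-knockout arrays. The log2 fold changes were 3.75 in the single knockout against control (SE 1.40, adjusted p = 0.183, limma) and -4.92 in the double knockout against the single knockout (SE 1.40, adjusted p = 0.0654, limma). Without double-knockout replicate 3 they were 3.75 and -6.99 (adjusted p = 0.0163 and 0.00175, limma). In the double knockout against control, with all arrays, the log2 fold change of *Lcn2* was -1.17 and was not called. There, double-knockout replicates 1 and 2 lay below, and replicate 3 above, every control array. Summed epithelial markers were also highest in the single knockout, and their part in this was not tested.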
